A study of Bos taurus with 30 samples.

Results

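The heat shock proteins of the HSP70 (HSPA and HSPH), mitochondrial chaperonin (HSPD and HSPE) and small heat shock protein (HSPB) families were described together with their DNAJ cochaperones in skin of cattle infested with ticks. Members were the genes whose single annotated symbol began with HSPA, HSPB, HSPD, HSPE, HSPH or DNAJ, apart from a pair left out by the rule, and each was read by its probe set with the highest mean. The rule found 42 genes among the 9155 genes with a single symbol. They comprised 8 HSP70 genes, 2 mitochondrial chaperonin genes, 5 small heat shock protein genes, 3 DNAJA, 7 DNAJB and 16 DNAJC genes, and HSPBAP1, which encodes a binding partner of a small heat shock protein and enters through its name. A gene was tested if 3 or more arrays read it no lower than their own median signal, which held for 39 of the 42. HSPB3, a small heat shock protein of muscle (1.45 to 6.49 over the 30 arrays), DNAJC5, a cochaperone of secretory vesicles (2.55 to 6.53), and DNAJC22 (0.96 to 4.74) reached the array median in 0 arrays and were not tested.

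The animals were F2 cattle of a cross between Gyr (Bos indicus) and Holstein (Bos taurus), called tick resistant or tick susceptible in the labels. Feeding-site skin was biopsied before infestation (0 h) and at 24 h and 48 h of infestation. The 6 resistant animals are represented by 5 biopsies before infestation, 6 from 24 h and 5 from 48 h. For the 7 susceptible animals there were 3 biopsies before infestation, 6 from 24 h and 5 from 48 h. Values are log2 signals of an Affymetrix bovine expression array, on which 1 unit is a doubling and which were scaled by the authors to a common trimmed mean. The groups used here hold no uninfested skin at 24 h or 48 h, so infestation and time since the first biopsy cannot be told apart.

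Heat shock proteins hold unfolded proteins and help them to fold, refold or be degraded. HSP70 proteins bind and release their clients in a cycle of ATP hydrolysis; DNAJ proteins bring clients and start the hydrolysis, and exchange factors such as HSPH1 and the BAG proteins end it. Many of these genes are induced together by the transcription factor HSF1 when proteins unfold in heat or other stress, whereas those of the endoplasmic reticulum answer to the unfolded protein response. Epidermis and muscle are known as rich sources of small heat shock proteins.

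Keratinocyte markers were present in this skin: 9 of 12 listed keratinocyte markers were on the array and all 9 passed the filter, with a mean signal of 10.03 to 12.05 in the resistant 48 h arrays. Fibroblast markers were also present, at 11.87 to 13.83 over all arrays. Of 10 listed skeletal muscle markers 8 were on the array, and 3 passed the filter: MYH1, TNNT1, TNNT3, TNNC2 and MB lay below the array median in every group, whereas MYH7 was at 11.07 to 12.04 and CKM at 9.04 to 11.92 over the 30 arrays. One array stood apart before any test. Resistant animal 1 at 48 h lay at 65.6 on the first principal component (17.7% of the variance), where the next highest array lay at 38.3, and it had the lowest keratinocyte mean, 10.03. The resistant 0 h arrays numbered 3, 4 and 5 went against their numbers: over 100 probe sets that differ between animals, their correlations with later arrays of their own number were -0.46, 0.49 and -0.53, and those with animals 4, 5 and 6 were 0.93, 0.88 and 0.92. In biopsies of whole skin, fewer cells of a type and less RNA per cell cannot be told apart.

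HSPH1 and DNAJB1 varied widely between biopsies of the same group, and were the 2 of 39 tested members whose SD within groups exceeded the 95th percentile of all probe sets. HSPH1, an HSP110-type exchange factor for HSP70, read 14.07, 11.20, 12.82, 12.23 and 13.15 in resistant 0 h skin and 13.25, 13.69 and 11.89 in susceptible 0 h skin. At 24 h its lowest, median and highest values were 11.12, 11.40 and 13.79 in resistant skin and 11.06, 12.29 and 13.42 in susceptible skin. At 48 h it read 13.12, 12.52, 10.80, 12.27 and 11.45 in resistant skin and 13.35, 11.27, 13.23, 12.53 and 11.02 in susceptible skin. The ranges of all 6 groups overlapped. Its range over the 30 arrays, 3.27, was matched among the tested members by DNAJC6, an auxilin that strips clathrin from vesicles, which reached the array median in 6 arrays. The SD of HSPH1 within groups was 0.98, where the median over all probe sets was 0.32 and the 95th percentile 0.79. Groups accounted for 12.9% of its variance over the 30 arrays, where the median probe set had 17.1%. Over the 27 arrays of animals with 2 or 3 arrays, animals accounted for 30.9%, where the median probe set had 45.2%. These shares were computed apart and are not parts of one total. The animal share uses the labelled numbers, of which those of resistant 0 h arrays 3, 4 and 5 are uncertain.

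DNAJB1, the cochaperone that works with cytosolic HSP70 in the heat shock response, was nearly as variable. Its values were 12.66, 11.48, 11.71, 12.34 and 12.42 in resistant 0 h skin and 12.61, 13.37 and 11.08 in susceptible 0 h skin. At 48 h they were 12.36, 12.57, 10.45, 11.86 and 10.54 in resistant skin and 12.46, 10.79, 12.90, 12.64 and 10.80 in susceptible skin. Each 48 h group held 3 arrays at 11.86 or above and 2 at 10.80 or below, and the groups overlapped. Its SD within groups was 0.88, and a second probe set of the gene had a correlation of 0.93 with the first over the 30 arrays.

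**Figure D1:**
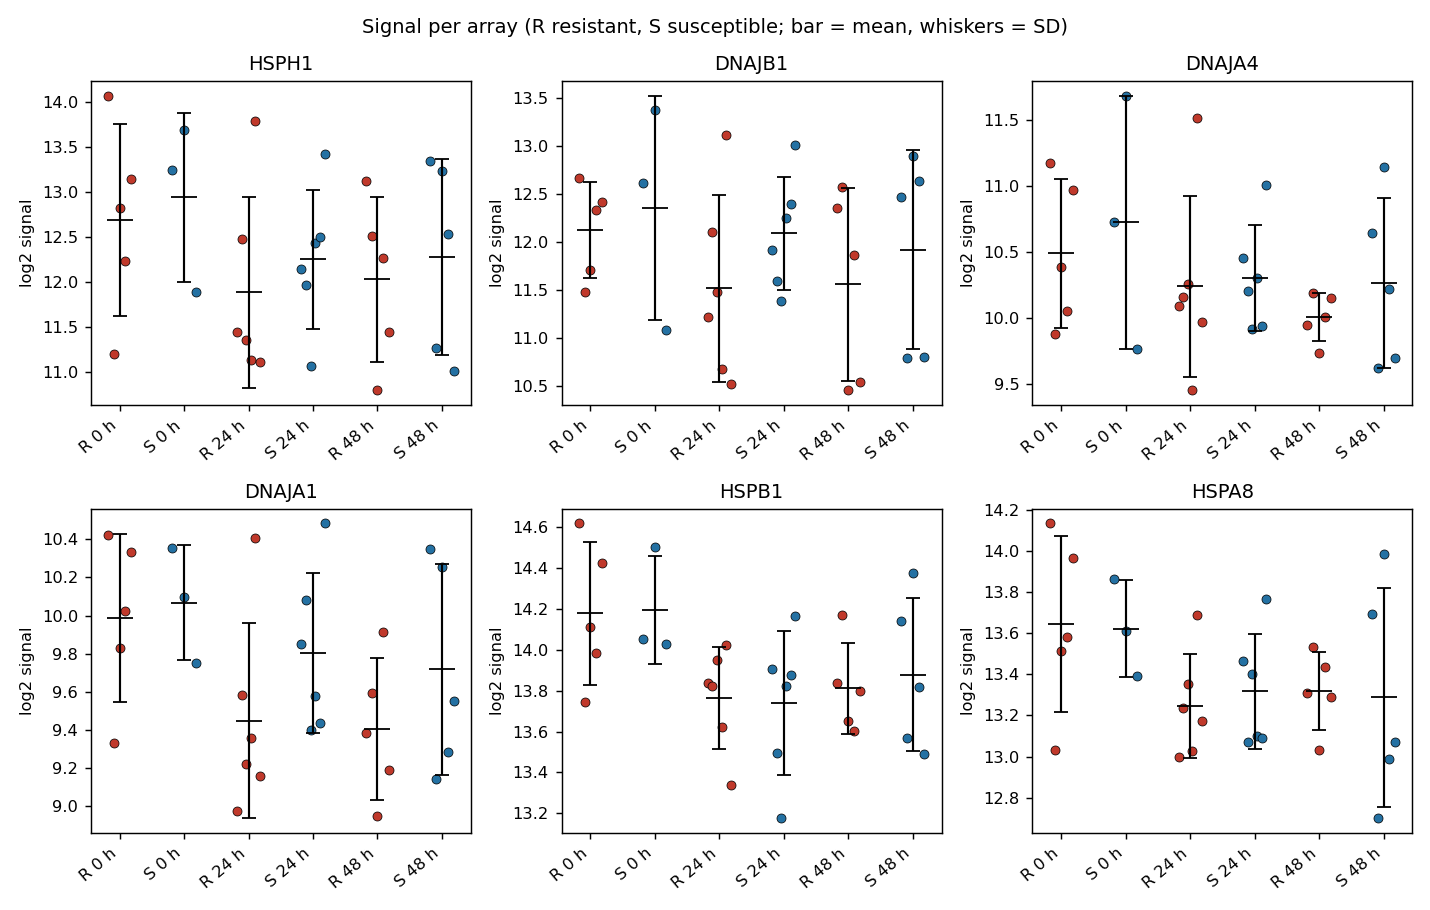
Log2 signal (vertical axes) of HSPH1, DNAJB1, DNAJA4, DNAJA1, HSPB1 and HSPA8 in each of the 30 arrays, by group, with resistant (R, red) left of susceptible (S, blue) at each time; bars are means and whiskers SDs. HSPH1 spans 10.80 to 14.07 and every group overlaps every other.

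The members that were high with HSPH1 were high in the same biopsies. Over the 30 arrays the Pearson correlation with HSPH1 was 0.90 for DNAJB1, 0.84 for DNAJA4 and 0.81 for DNAJA1, which are HSP70 cochaperones of the cytosol. It was 0.80 for HSPB1 and 0.78 for HSPB8, small heat shock proteins of which HSPB8 acts in a complex with BAG3. For HSPA8, the constitutive cytosolic HSP70, it was 0.76. For HSPD1 and HSPE1, the mitochondrial chaperonin and its lid, it was 0.74 and 0.69, and for HSPA5, the HSP70 of the endoplasmic reticulum, 0.70. These 9 are all the members at 0.6 or above, which is 23.7% of the 38 other members tested, beside 0.841% of 7012 genes (59). The median correlation was 0.16 over the members and -0.04 over all genes.

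These correlations describe arrays that share animals, and no test was made of them. With group means removed the 9 lay between 0.69 and 0.90, within resistant arrays between 0.67 and 0.89, and within susceptible arrays between 0.69 and 0.93. Without the 2 arrays farthest from the median of HSPH1 they lay between 0.62 and 0.91. Of the 8 arrays highest in HSPH1, 2 were resistant 0 h, 2 susceptible 0 h, 1 resistant 24 h, 1 susceptible 24 h, 0 resistant 48 h and 2 susceptible 48 h. DNAJA4, DNAJA1 and HSPA8 had the same 8 arrays as their highest. Biopsies of 1 animal, each from a different time, differed too, and the part of time in this was not tested. Over the 10 animals with 2 or 3 arrays, the range of HSPH1 within an animal ran from 0.33 (animal 6, 2 arrays) to 2.63, with a median of 1.75. These ranges use the labelled numbers, of which those of resistant 0 h arrays 3, 4 and 5 are uncertain. Animal 1, whose 0 h and later arrays match in their other probe sets, spanned 2.62.

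The correlation of HSPH1 was -0.05 with the keratinocyte markers, -0.17 with smooth muscle, -0.12 with macrophages, 0.09 with fibroblasts, -0.06 with skeletal muscle, -0.02 with endothelium and 0.03 with T cells. Without resistant animal 1 at 48 h it was -0.23 with macrophages. Some of the 9 members most like it had stronger ones: over HSPH1 and these 9, correlations ran from -0.49 (HSPE1) to 0.10 with endothelium, from -0.43 (HSPE1) to 0.03 with T cells, from -0.43 (HSPE1) to -0.02 with smooth muscle, from -0.40 (DNAJA1) to -0.12 with macrophages, from -0.21 to 0.18 with fibroblasts, from -0.19 to 0.09 with skeletal muscle and from -0.06 to 0.32 (HSPA5) with keratinocytes. The array's control probe sets for the 3' and 5' ends of 6 bovine transcripts bear on RNA quality. The 3' minus 5' signal of these 6 correlated with HSPH1 at -0.19 to 0.17 over the 30 arrays. For GAPDH it ran from 0.33 to 1.002 (median 0.57) in resistant 48 h skin and from 0.19 to 0.76 (median 0.37) in resistant 0 h skin. For actin it ran from 1.16 to 4.86 (median 4.40) and from 1.92 to 3.43 (median 2.63) in these groups. The medians of cyclophilin were 0.99 and 0.91. Those of eIF-4E (4.44 and 4.99), GST (1.48 and 1.76) and EF1A (-0.51 and -0.35) were lower at 48 h. The part of cell composition and of RNA quality in the pattern was not tested.

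Of 56 tested genes of the pathway lists outside the rule, 11 had a correlation with HSPH1 of 0.6 or above and 15 one below 0, and the median was 0.18. BAG3, an exchange factor and partner of HSPB8, had a correlation of 0.96, CACYBP 0.93, the inducible cytosolic HSP90 gene HSP90AA1 0.86, and AHSA1, which stimulates the HSP90 ATPase, 0.84. STIP1, which joins HSP70 to HSP90, had 0.66 and the small heat shock protein CRYAB 0.65. HSF1 itself had a correlation of 0.01 and HSF2 0.18 at the RNA level. Outside the lists, and chosen after their values were seen, ZFAND2A (0.91), CCDC117 (0.91) and JMJD6 (0.87) were among the 6 genes most like HSPH1, with BAG3, CACYBP and DNAJB1.

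**Figure D2:**
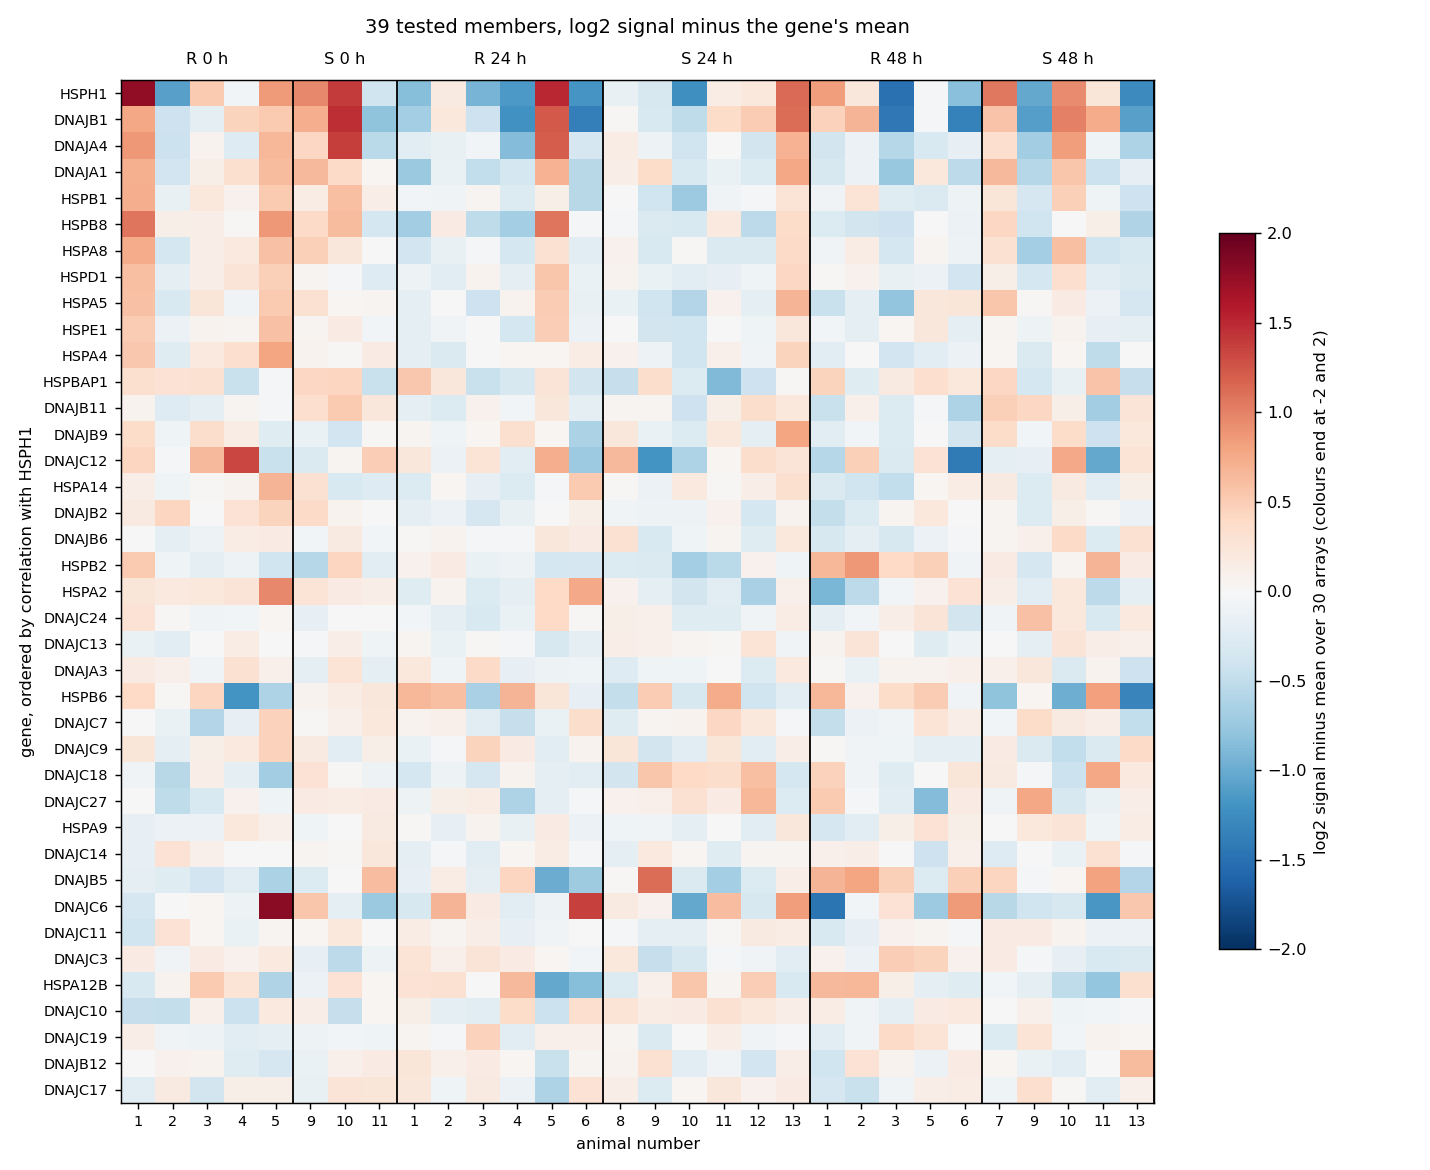
Log2 signal of the 39 tested members minus each gene's mean over 30 arrays (colour, ending at -2 and 2), with arrays in columns by group and animal number and genes in rows ordered by their correlation with HSPH1. The top 10 rows are all above their mean in resistant animals 1 and 5 at 0 h.

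The other 29 tested members followed HSPH1 less closely, with correlations from -0.42 to 0.48 over all arrays. Within susceptible arrays DNAJB2 and DNAJC11 each had 0.61, and within resistant arrays they had 0.04 and -0.59. Over all arrays HSPA9, the HSP70 of mitochondria, had -0.05, and HSPA14, an HSP70 bound at ribosomes, 0.25. Among the DNAJ genes DNAJC3 had -0.14, DNAJC19, a part of the mitochondrial import motor, -0.31, DNAJB12, of the membrane of the endoplasmic reticulum, -0.39, and DNAJC17 -0.42. HSPA4, which like HSPH1 is an HSP110-type exchange factor, had 0.48. The small heat shock proteins divided: HSPB1 and HSPB8 were with HSPH1, and HSPB2 (0.22) and HSPB6 (0.05), which are best known from muscle, were not.

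No member passed the test in any of 11 comparisons (limma, p adjusted by Benjamini and Hochberg over 13809 probe sets, threshold 0.05). Over all probe sets, 2 (0.0145%) passed for resistant against susceptible skin at 48 h, and 0 (0%) in each of the other 10 comparisons. The smallest adjusted p of a member was 0.280. Unadjusted p-values are therefore given below, each beside the share of all probe sets that reached the same level, together with the values themselves. Samples of 1 animal at different times are not independent, and several comparisons share groups.

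In resistant skin at 48 h against 0 h, 9 of 39 members had an unadjusted p under 0.05, beside 11% of all probe sets. Of the 9, 7 had negative differences (6.08% of all probe sets) and 2 positive ones (4.95%). The median difference of the 39 was -0.18, with 25 below 0, and that of all probe sets was -0.02. By family, the median was -0.37 for HSP70 genes (6 of 8 below 0), -0.49 for DNAJA genes (3 of 3), -0.31 for the mitochondrial chaperonin genes (2 of 2), -0.21 for DNAJB genes (5 of 7), 0.07 for small heat shock proteins (2 of 4) and 0.00 for DNAJC genes (7 of 14). Of HSPH1 and the 9 members most like it, 10 of 10 lay below 0, with a median of -0.44, and of the other 29 members 15 did, with a median of -0.04. Since these 10 were grouped because they vary together over these same arrays, they do not count as 10 separate readings. The mean of the macrophage markers, with which all 10 correlated below 0, was at 9.45 to 10.504 in resistant 48 h skin and at 8.18 to 9.27 in resistant 0 h skin. The endothelial mean was at 8.67 to 9.14 and at 7.49 to 8.50 in these groups, and the 10 correlated with it at -0.49 to 0.10. The part of both marker lists in the difference was not tested. In susceptible skin at 48 h against 0 h the same 10 also lay below 0, with a median of -0.33 and HSPD1 at -0.0013. There 0 members had an unadjusted p under 0.05 (0.949% of all probe sets).

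HSPA4 had the smallest p of these. It read 10.01, 10.22, 9.84, 9.99 and 10.11 in resistant 48 h skin, against 10.77, 9.99, 10.42, 10.56 and 11.01 in resistant 0 h skin. All 48 h arrays lay below 4 of the 5 arrays of 0 h, and animal 2 at 0 h lay among them. The difference was -0.52 ± 0.16 (SE), with an adjusted p of 0.280 in limma, and -0.43 for a second probe set of the gene. HSPA4 correlated with the endothelial markers at -0.56 over 30 arrays, and at -0.55 without resistant animal 1 at 48 h. The mean of these markers was at 8.67 to 9.14 in resistant 48 h skin and at 7.49 to 8.50 in resistant 0 h skin. Its part in the difference was not tested.

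HSPA2, an HSP70 best known from the testis and also found in epidermis, read 10.54, 10.92, 11.40, 11.53 and 11.74 in resistant 48 h skin, against 11.69, 11.65, 11.66, 11.71 and 12.41 in resistant 0 h skin. Animals 1 and 2 were the lowest at 48 h, and the highest 48 h array reached into the 0 h range. The difference was -0.60 ± 0.21 (SE, adjusted p = 0.330 in limma) and did not pass. With the animal as a fixed term in limma it was -0.77 and passed (adjusted p = 0.0331), as 1 member of 39 beside 0.608% of all probe sets (84). It did not pass when the 3 resistant 0 h arrays of uncertain number were left out as well (-0.81, adjusted p = 0.143), or with the animal as a random block (-0.64, adjusted p = 0.156). Over the 27 arrays of animals with 2 or 3 arrays, animals accounted for 72.6% of the variance of HSPA2. This was the highest share among the members, where the median member had 39.1% and the median probe set 45.2%. HSPA2 correlated with the keratinocyte markers at 0.63 and with the endothelial markers at -0.70 over 30 arrays; without resistant animal 1 at 48 h these were 0.50 and -0.73, and the difference was -0.43 (adjusted p = 0.548). The part of tissue composition in it was not tested.

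DNAJB2, a cochaperone that sorts clients to the proteasome and is best known from neurons, read 8.20, 8.39, 8.73, 8.88 and 8.66 in resistant 48 h skin, against 8.85, 9.10, 8.66, 8.96 and 9.12 in resistant 0 h skin. The groups overlapped between 8.66 and 8.88. The difference was -0.36 ± 0.13 (SE, adjusted p = 0.330), and -0.27 without resistant animal 1 at 48 h. HSPB8 read 12.12, 12.03, 11.98, 12.40 and 12.28 in resistant 48 h skin, against 13.47, 12.51, 12.53, 12.42 and 13.26 in resistant 0 h skin. Its groups did not overlap, although the nearest arrays were at 12.40 and 12.42, and it was the 1 member of 39 of which that held, beside 0.956% of all probe sets below 0. The difference was -0.67 ± 0.28 (SE, adjusted p = 0.371).

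Of the 14 members with positive differences, the 2 with an unadjusted p under 0.05 were DNAJB5 and HSPB2. DNAJB5, a cochaperone known from heart and smooth muscle, read 7.94, 8.04, 7.73, 6.98 and 7.72 in resistant 48 h skin, against 7.07, 7.004, 6.87, 7.03 and 6.62 in resistant 0 h skin. Animal 5 at 48 h lay in the 0 h range and the other 4 above it. DNAJB5 reached the array median in 11 of the 30 arrays, and its resistant 0 h values all lay below the lowest array median, 7.17. The difference was 0.76 ± 0.30 (SE, adjusted p = 0.360). DNAJB5 correlated with the mean of 7 smooth muscle markers at 0.84 over the 30 arrays, and at 0.83 without resistant animal 1 at 48 h. That mean ran from 9.82 to 11.68 (median 11.39) in resistant 48 h skin and from 9.87 to 10.62 (median 10.46) in resistant 0 h skin, with 0 of the 7 markers below the array median, and its part in the difference was not tested.

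HSPB2, a small heat shock protein of muscle, read 7.99, 8.19, 7.73, 7.81 and 7.25 in resistant 48 h skin, against 7.86, 7.24, 7.16, 7.22 and 6.92 in resistant 0 h skin. The difference was 0.51 ± 0.22 (SE, adjusted p = 0.390). Against resistant 24 h skin (6.97, 7.22 and 7.49 as lowest, median and highest) it was 0.58 ± 0.21 (SE, adjusted p = 0.423), and in susceptible skin at 48 h against 24 h it was 0.44 ± 0.21 (SE, adjusted p = 1). HSPB2 correlated with the macrophage markers at 0.59 and with the smooth muscle markers at 0.49. Its signal reached the array median in 14 of the 30 arrays.

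**Figure D3:**
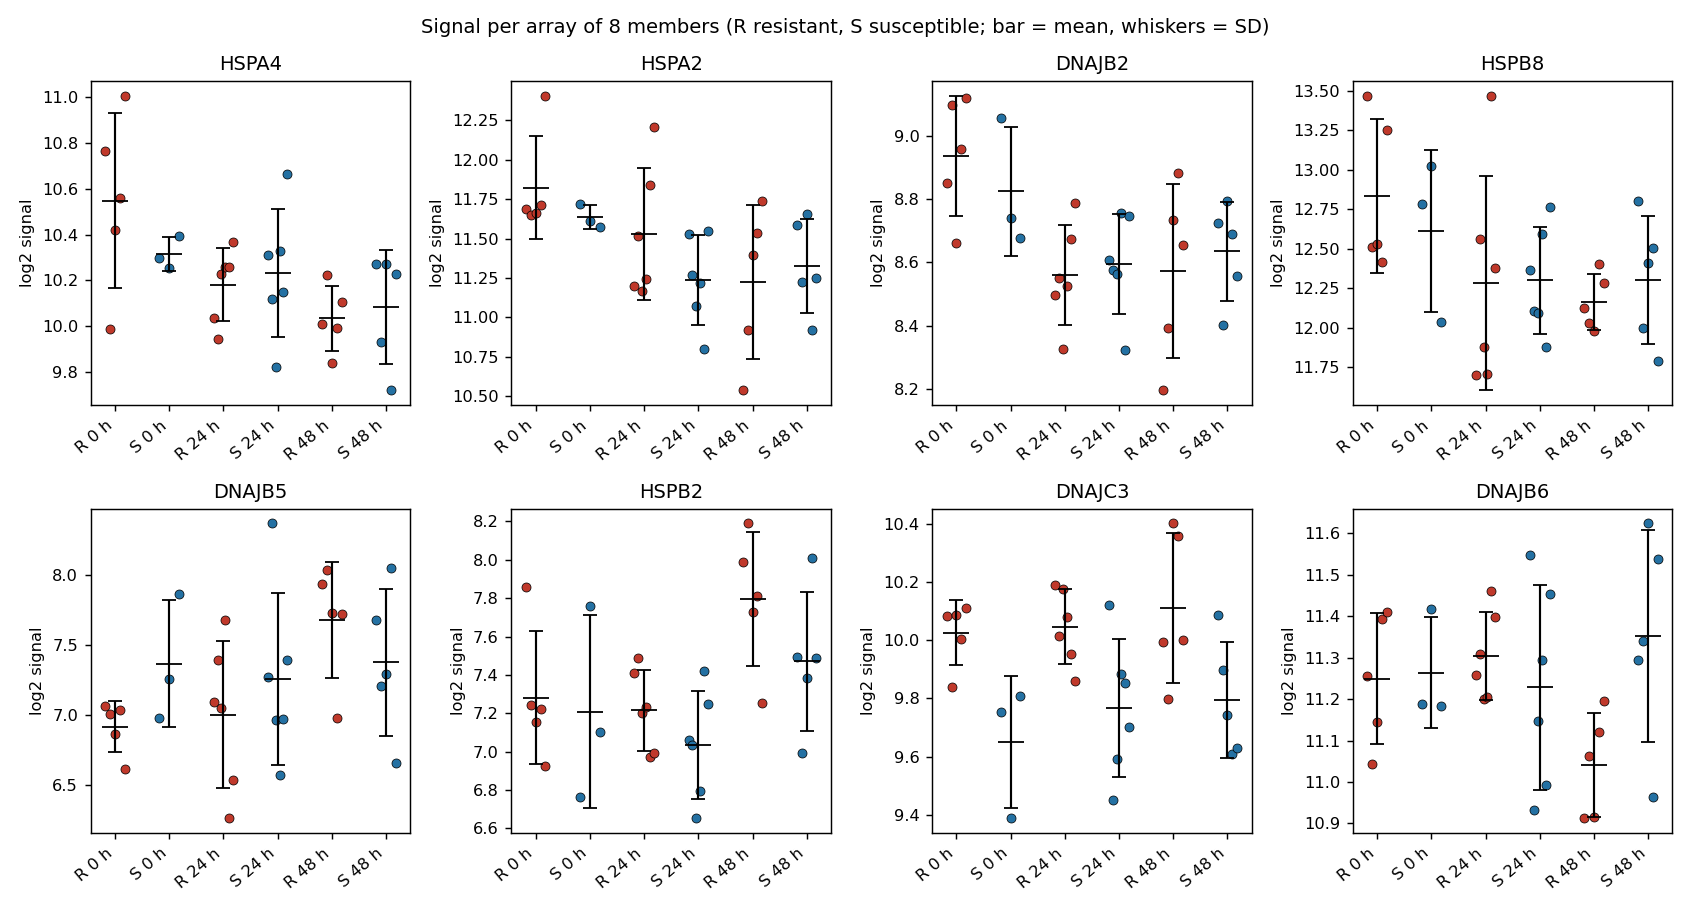
Log2 signal (vertical axes) of HSPA4, HSPA2, DNAJB2, HSPB8, DNAJB5, HSPB2, DNAJC3 and DNAJB6 in each array, by group, with resistant (R, red) left of susceptible (S, blue) at each time; bars are means and whiskers SDs. HSPB8 of resistant 48 h skin lies at 11.98 to 12.40, below all resistant 0 h arrays, and DNAJC3 is at 9.80 or above in every resistant array.

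The other members with an unadjusted p under 0.05 in that comparison were HSPD1 (-0.36 ± 0.16 SE), DNAJA1 (-0.58 ± 0.27 SE) and HSPA14 (-0.36 ± 0.17 SE). A second probe set of HSPA14 that passed the filter had the opposite sign, 0.20 (adjusted p = 0.875), and its correlation with the first was 0.37, so no direction is given for that gene. At 24 h against 0 h in resistant skin 5 members, all with negative differences, had an unadjusted p under 0.05, beside 4.72% of all probe sets and 1.98% of them below 0. They were DNAJB2 (-0.38 ± 0.13 SE, adjusted p = 0.810), HSPA4 (-0.37 ± 0.15 SE), HSPB1 (-0.41 ± 0.18 SE), HSPB8 and DNAJA1 (-0.54 ± 0.26 SE). All 8 HSP70 genes lay below 0, from -0.81 to -0.01, with a median of -0.26. They include HSPA14, and HSPH1, HSPA8 and HSPA5, which vary together. The median of the 39 was -0.09, beside 0.00 for all probe sets. The 24 h and 48 h differences use the same 0 h arrays. At 48 h against 24 h 3 members had an unadjusted p under 0.05 (9.65% of all probe sets): HSPB2, DNAJB5 (0.68 ± 0.29 SE) and DNAJB6 (-0.26 ± 0.12 SE). The groups of DNAJB6 did not overlap (0.406% of all probe sets below 0), although the nearest arrays were at 11.196 and 11.201.

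Between resistant and susceptible skin at 48 h, 3 members had an unadjusted p under 0.05, beside 10.1% of all probe sets. The median of the 39 was -0.07, with 26 below 0, and that of all probe sets -0.04. DNAJB6, which keeps proteins from aggregating, read 10.91, 11.06, 10.92, 11.12 and 11.20 in resistant 48 h skin, against 11.29, 11.34, 11.62, 10.96 and 11.54 in susceptible 48 h skin. Only susceptible animal 11 lay within the resistant range. The difference was -0.31 ± 0.12 (SE, adjusted p = 0.406). DNAJB6 correlated with the keratinocyte markers at 0.74 and with the macrophage markers at -0.73 over 30 arrays. The keratinocyte mean ran from 10.03 to 12.05 in resistant 48 h skin and from 11.35 to 12.92 in susceptible 48 h skin. The mean of the 7 macrophage markers ran from 9.45 to 10.504 and from 7.22 to 9.30 in these groups. The part of both marker lists in the difference was not tested.

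HSPB6, a small heat shock protein of smooth and cardiac muscle, read 7.93, 7.35, 7.63, 7.79 and 7.20 in resistant 48 h skin, against 6.47, 7.30, 6.29, 8.09 and 5.95 in susceptible 48 h skin. Susceptible arrays were the more scattered, with an SD of 0.87, and one of them was above all resistant arrays. HSPB6 reached the array median in 16 of the 30 arrays. The difference was 0.76 ± 0.36 (SE, adjusted p = 0.484). HSPB6 correlated with the fibroblast markers at 0.57 and with the macrophage markers at 0.49 over 30 arrays. The fibroblast mean was at 13.11 to 13.82 in resistant 48 h skin and at 11.87 to 13.58 in susceptible 48 h skin, and the part of both marker lists in the difference was not tested. In the comparison of the 48 h responses, resistant minus susceptible, HSPB6 had the smallest p of the members (1.09 ± 0.54 SE, unadjusted p = 0.0534), and 0 members were under 0.05, beside 2.93% of all probe sets.

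DNAJC3 is a cochaperone of HSPA5 in the endoplasmic reticulum and an inhibitor of the kinase PERK. It was the 1 member with an unadjusted p under 0.05 between the phenotypes at all 3 times. The shares of all probe sets at the single times were 4.51% at 0 h, 4.40% at 24 h and 10.1% at 48 h. The share that reached this level at all 3 times was not computed, so the count has no baseline. At 0 h it read 10.08, 9.84, 10.09, 10.004 and 10.11 in resistant skin, against 9.75, 9.39 and 9.81 in susceptible skin, and the groups did not overlap (1.46% of all probe sets above 0). At 24 h its lowest, median and highest values were 9.86, 10.05 and 10.19 in resistant skin and 9.45, 9.78 and 10.12 in susceptible skin. At 48 h it read 9.99, 9.80, 10.40, 10.36 and 10 in resistant skin, against 10.09, 9.90, 9.74, 9.61 and 9.63 in susceptible skin. At the later times the groups overlapped by the highest susceptible arrays. The differences were 0.37 ± 0.15, 0.28 ± 0.12 and 0.32 ± 0.13 (SE) at 0 h, 24 h and 48 h, with adjusted p of 1, 0.978 and 0.426 in limma, and the animals recur across the times. Without susceptible animal 10 the difference at 0 h was 0.24. Groups accounted for 44.8% of its variance, and the median probe set had 17.1%. DNAJC3 correlated with the T cell markers at -0.32, with the endothelial markers at -0.25 and with the macrophage markers at 0.20 over the arrays. The T cell mean at 0 h was 7.07 to 7.88 in resistant skin and 7.96 to 8.13 in susceptible skin. The endothelial mean at 0 h was 7.49 to 8.50 and 8.55 to 8.73. Both means overlapped between the phenotypes at 24 h and 48 h. The part of tissue composition in the differences was not tested.

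At 0 h DNAJC3 was the 1 member with an unadjusted p under 0.05, beside 4.51% of all probe sets. DNAJB11, another HSPA5 cochaperone of the endoplasmic reticulum, did not overlap either, at 7.78, 7.46, 7.53, 7.76 and 7.67 in resistant 0 h skin, against 8.04, 8.23 and 7.94 in susceptible 0 h skin. Its difference was -0.43 ± 0.21 (SE, unadjusted p = 0.0537), and DNAJC27 also did not overlap, with resistant values below, beside 3.16% of all probe sets below 0. At 24 h, 2 members had an unadjusted p under 0.05, beside 4.40% of all probe sets: DNAJC3, and DNAJC18 at -0.39 ± 0.19 (SE). The HSPH1 difference between resistant and susceptible skin was -0.25 ± 0.66 at 0 h, -0.37 ± 0.52 at 24 h and -0.25 ± 0.57 (SE) at 48 h, so the spread between biopsies left its difference between the phenotypes uncertain by more than its size.

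**Figure D4:**
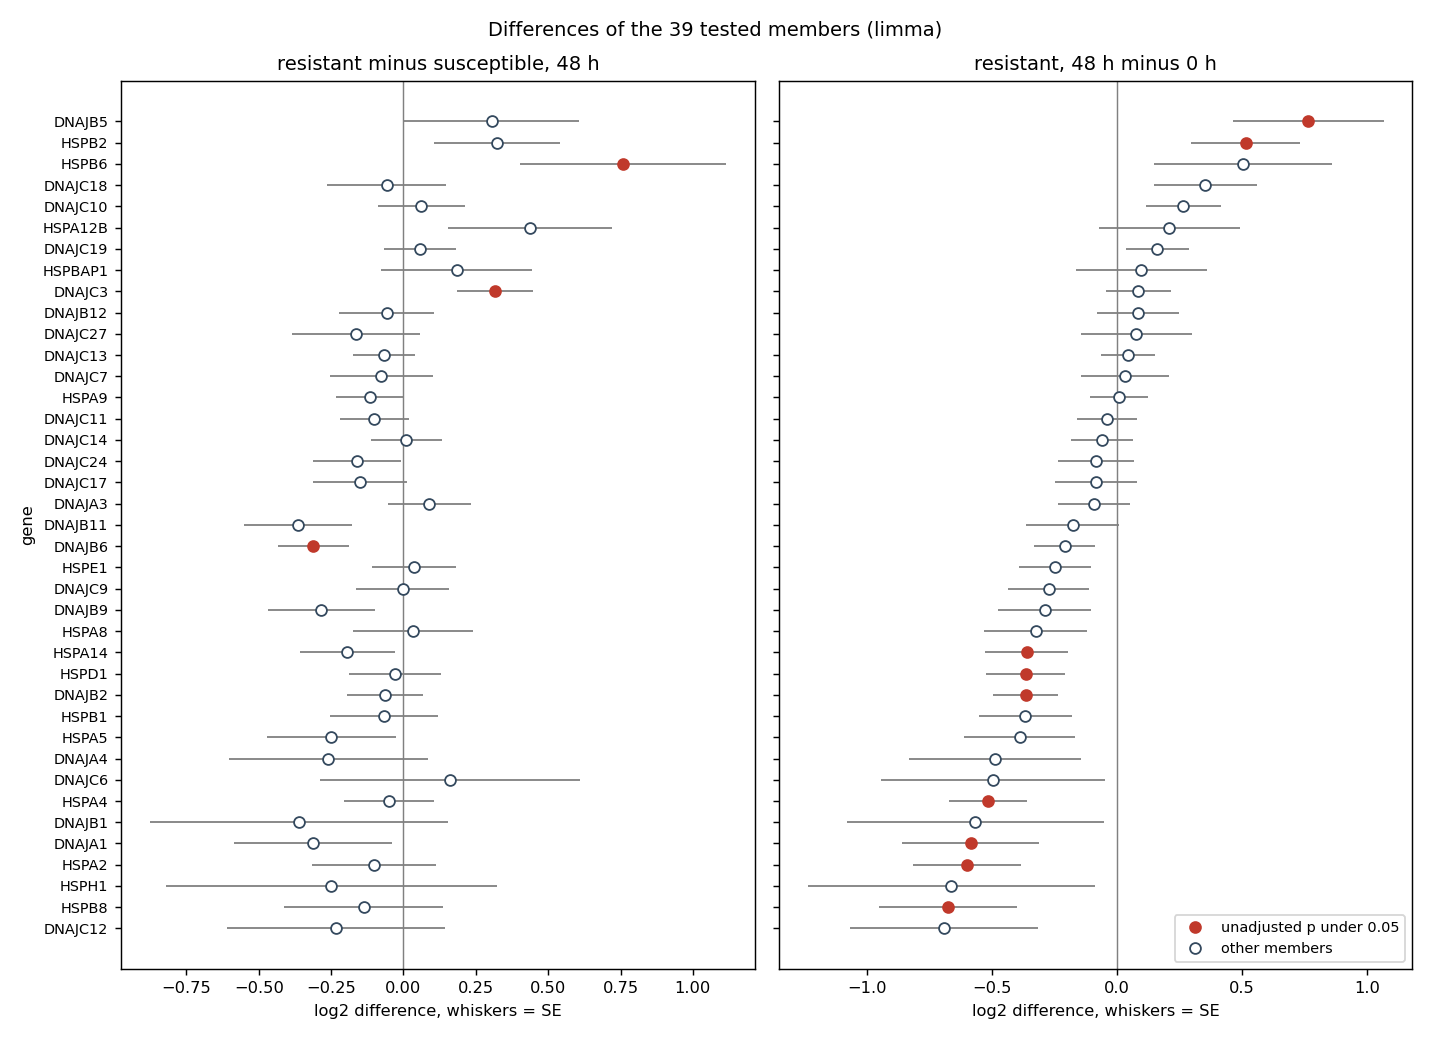
Log2 differences (horizontal axes) of the 39 tested members with their SE, for resistant minus susceptible skin at 48 h (left) and for resistant skin at 48 h minus 0 h (right), in the order of the right panel. Filled points have an unadjusted p under 0.05, 3 on the left and 9 on the right, and 0 of them passed after adjustment.

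Within susceptible skin little reached even the unadjusted level. At 24 h against 0 h it was 1 member, HSPB1 (-0.46 ± 0.21 SE), beside 2.30% of all probe sets, and at 48 h against 24 h it was 1, HSPB2, beside 1.88%. For the 24 h responses, resistant minus susceptible, it was 0 members, beside 1.85%. At 24 h against 0 h the 39 had a median of -0.09, with 27 below 0. With 3 susceptible arrays at 0 h, the comparisons that use them are the least precise.

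Other genes of chaperone pathways were read from 6 lists: the HSP90 family, cochaperones and exchange factors, the cytosolic chaperonin, heat shock factors, the unfolded protein response and other small heat shock proteins. None passed the test in any comparison. In resistant skin at 48 h against 0 h, an unadjusted p under 0.05 was reached, with negative differences throughout, by 3 of 4 HSP90 genes, 6 of 28 cochaperones, 4 of 6 chaperonin genes, 1 of 3 heat shock factors and 2 of 14 genes of the unfolded protein response, and by none with a positive difference, beside 6.08% of all probe sets with a negative one. CHORDC1, an HSP90 cochaperone, had -1.16 ± 0.35 (SE, adjusted p = 0.280) and BAG2, an HSP70 exchange factor, -0.53 ± 0.16 (SE). The chaperonin subunit CCT5 had -0.47 ± 0.14 (SE), CRELD2 of the endoplasmic reticulum -0.76 ± 0.24 (SE) and HSF1 -0.33 ± 0.15 (SE). At 24 h against 0 h STIP1 had the smallest p, -0.61 ± 0.15 (SE, adjusted p = 0.4998). Between resistant and susceptible skin at 48 h, the unadjusted level was reached by 2 of 3 heat shock factors, HSF2 (-0.25 ± 0.11 SE) and HSF1 (-0.31 ± 0.15 SE). It was also reached by 1 of 14 genes of the unfolded protein response, SYVN1, a ubiquitin ligase of the endoplasmic reticulum (-0.46 ± 0.18 SE). No gene of the other lists reached it, beside 10.1% of all probe sets.

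**Figure D5:**
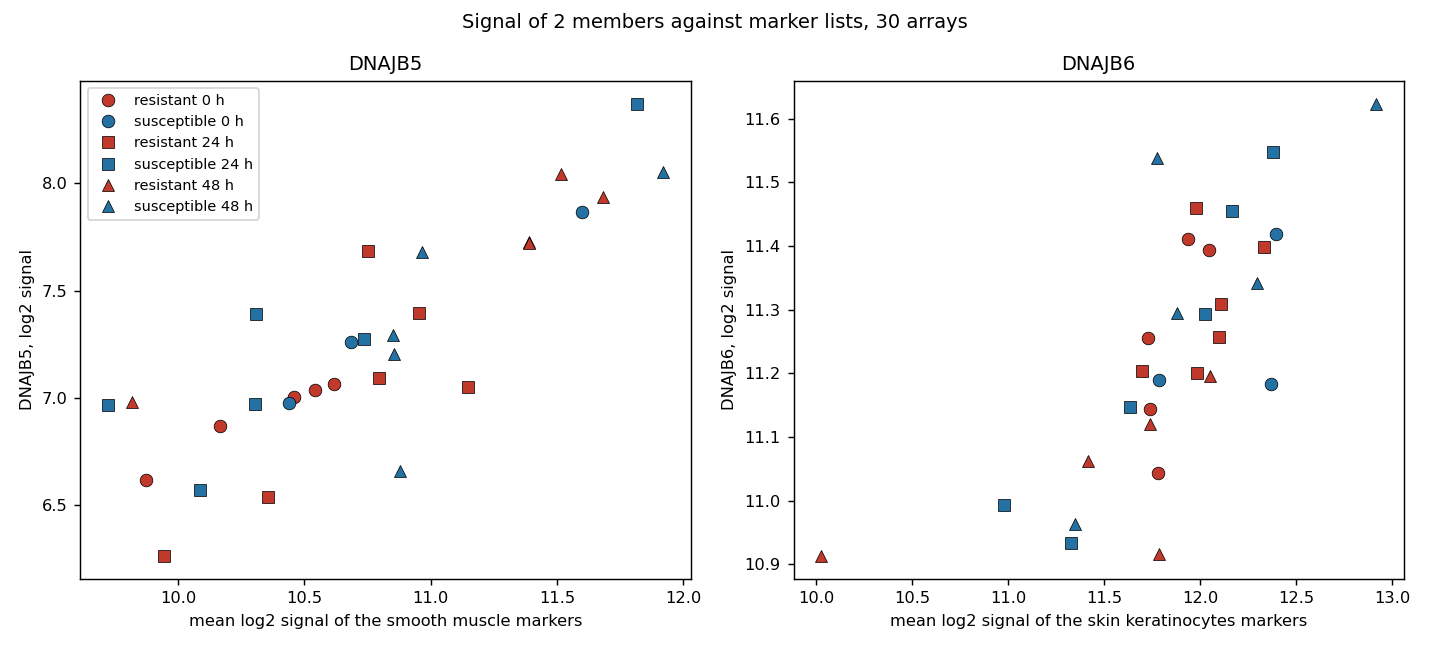
Log2 signal of DNAJB5 against the mean of the smooth muscle markers (left) and of DNAJB6 against the mean of the keratinocyte markers (right), each point 1 of 30 arrays, red for resistant and blue for susceptible, with circles for 0 h, squares for 24 h and triangles for 48 h. The correlations are 0.84 and 0.74; resistant animal 1 at 48 h is the point at 10.03 on the right.

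Second probe sets bound what can be said of single members. Of 21 other probe sets of 15 members, 11 passed the filter, and 2 of these, for DNAJB1 and HSPA4, had a correlation above 0.5 with the one used. Those of DNAJC14 (0.03) and DNAJC24 (0.02) showed no likeness to it. No other probe set of HSPH1 passed the filter (means 3.60, 3.33 and 3.65), so HSPH1 rests on a single usable probe set. Their correlations with the one used were 0.48, 0.54 and 0.05.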

How the data were processed

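Total RNA of skin biopsies was amplified and biotin labelled as the labels' protocols describe. Log2 signal values were deposited; the authors computed them with MAS5 according to the submitters' processing notes, and a version and a genome build are not given in the sources used here. In linear signal each of the 30 arrays had a 2% trimmed mean of 500.0, and array medians were 7.17 to 7.40. Gene symbols came from the platform's annotation, and all 42 members kept their symbol when matched by gene ID to RefSeq. No further normalization was made.

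Group means of the 6 groups were estimated together in limma 3.58.1 under R 4.3.3 (lmFit, eBayes with an intensity trend), on 13809 of 24016 probe sets, those at or above their array's median in at least 3 arrays. Tests were two-sided, adjusted by Benjamini and Hochberg, threshold 0.05. The fit was tested on simulated data. The number of arrays limits the precision. Biopsies of 1 group are from different animals. Same-numbered arrays come from 1 animal, per the labels, and of 24 such pairs 16 had correlated deviations above 0.1 (range -0.24 to 0.63), so animal blocks were tried as alternatives. The other alternatives were quantile normalization, median centring, no filter, an offset of 16, only the groups compared, no trend, array weights, other probe sets and leaving out each array.

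Members and lists were chosen with earlier results of these data known. Named members are, per comparison, those past the threshold or else the 3 with the smallest p, examples of each role, and those whose groups do not overlap at 48 h; of each pathway list, up to 2 per comparison. The text gives a part of these. Correlations are Pearson's, across arrays, as descriptions. Figures used matplotlib 3.10.9 (Python 3.11.15).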

Additional observations from a re-analysis of the deposited data

Results flagged for a closer look

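Single arrays that stood apart within their group were found in 10 of 210 groups of a member, where chance flags about 1 group in 20 (10.5 of 210). Resistant animal 5 at 0 h gave 3 of them: HSPA2 at 12.41 (the others 11.65 to 11.71), HSPA14 at 11.13 (10.37 to 10.59) and DNAJC6, the clathrin-uncoating auxilin, at 8.51 (6.37 to 6.73). This array was closest to later arrays of animal 6 over 100 probe sets. Resistant animal 5 at 24 h was high in HSPD1 at 13.58 (12.82 to 13.09) and low in DNAJB12 at 8.23 (8.72 to 8.92). DNAJC14 was at 8.41 in resistant animal 5 at 48 h (8.82 to 8.96), and DNAJC17 at 8.36 in susceptible animal 9 at 24 h (8.68 to 8.85). The last 3 concern members that lay below the array median throughout: DNAJC22 at 4.74 in susceptible animal 9 at 24 h (0.96 to 2.13), DNAJC5 at 2.55 in resistant animal 1 at 24 h (5.03 to 5.42) and HSPB3 at 2.38 in susceptible animal 12 at 24 h (4.50 to 5.47).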

How the results depend on the processing

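The median difference of the 39 members changed sign under some alternative in 6 of 11 comparisons (values from -0.13 to 0.07 in these). It stayed below 0 in the other 5, at -0.23 to -0.11 in resistant skin at 48 h against 0 h and at -0.09 to -0.02 between the phenotypes at 48 h. Of the named members' recomputed differences, 862 of 865 kept their direction and their side of the threshold. HSPA2 in resistant skin at 48 h against 0 h passed with the animal as a fixed term (replicate block, -0.77), which gave 1 called member and 84 called probe sets, against 0 and 0 without the block. That comparison had 3 called probe sets with the 3 resistant 0 h arrays of uncertain number also left out, 2 with the animal as a random block, and 0 to 2 when 1 array was left out (1 without resistant animal 1 at 0 h, 2 without resistant animal 6 at 48 h). The block changed no other call of a named member. A second probe set gave the opposite sign for HSPA14 in that comparison (0.20) and for DNAJC10 in susceptible skin at 24 h against 0 h (-0.077, where the one used gave 0.30). Probe sets called between the phenotypes at 48 h, 2 in all, became 10 with median centring, 4 with no filter, 0 with array weights and 0 with only the groups compared. Leaving out 1 array gave 0 to 14: 0 without resistant animal 1, 2, 3 or 5 or susceptible animal 10, 1 without susceptible animal 7 or 9, 9 without resistant animal 6 and 14 without susceptible animal 11. At 24 h against 0 h in resistant skin the count was 2 with the fixed block and 3 arrays left out (0 otherwise), and 0 to 2 when 1 array was left out (2 without resistant animal 5 at 0 h); at 48 h against 24 h it was 0 to 1 (1 without resistant animal 1 at 24 h). Signal over background limits HSPB3, DNAJC5 and DNAJC22. The causes were not tested.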
